A study of Mus musculus with 6 samples.

Results

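The 43 genes described here are the mouse genes named for the eukaryotic translation initiation factors eIF1 to eIF6, without the eIF4E and eIF4G families. They were picked by a rule on gene names among the 31763 genes of the count table, with earlier results of these data known. Of 58 gene names that begin with Eif1 to Eif6, 15 were left out, namely those that begin with Eif4e or Eif4g, the X-linked and Y-linked eIF2 gamma genes, and pseudogenes. The table comes from RNA sequencing of the medial prefrontal cortex (mPFC) of male C57BL/6J mice aged 8 to 10 weeks. Morphine samples (M1 to M3) came from mice given morphine (10 mg/kg, i.p.) on 5 days of conditioned place preference training, a test in which an animal learns to prefer the chamber where the drug was given, and saline samples (S1 to S3) came from mice given saline (10 ml/kg, i.p.) in the same apparatus. All mice then stayed in the home cage without drug on days 7 to 12, and tissue was taken after the retrieval test on day 13. There were 3 libraries per group, and the sources do not say whether each came from 1 mouse or a pool, so the p-values below measure only the spread between these samples.

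In most eukaryotic translation, eIF2 bound to GTP carries the initiator tRNA to the small ribosomal subunit, where eIF1, eIF1A, eIF3 and eIF5 complete the scanning complex, and the helicase eIF4A with its cofactors eIF4B and eIF4H unwinds the leader of the mRNA. eIF5B then promotes joining of the large subunit, and the exchange factor eIF2B reloads eIF2 with GTP. Kinases that phosphorylate the alpha subunit of eIF2 block eIF2B, which lowers general translation and favours mRNAs such as Atf4, and this integrated stress response is a known regulator of long-term memory and synaptic plasticity in the rodent brain.

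By GENCODE annotation 42 of the 43 genes were protein-coding. The exception was Eif2c5, a lincRNA on the X chromosome with a name of the kind once used for Argonaute genes, which is not an initiation factor. It had 0, 0 and 0 counts in the morphine libraries and 0, 0 and 1 in the saline libraries. A minimum of 10 counts in at least 3 libraries, needed for testing, also left out Eif3j2, a near-identical copy of the eIF3 subunit gene Eif3j1, which had 8, 6 and 7 counts in morphine and 7, 7 and 3 in saline libraries. The 43 genes lay on 16 chromosomes, and the 41 tested had between 129 and 11206 counts in each library. Their summed share of all counts was 0.315 ± 0.0043% in morphine and 0.312 ± 0.0085% in saline libraries (SD, n = 3 each).

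Total counts lay between 17984153 and 23529592 in morphine libraries and between 19543377 and 22776251 in saline libraries. Library S1 stood apart from the other 5. Of the 10 olfactory bulb markers tested, 9 were more than 2 times as high in S1 as in any other library, and the summed level of these markers was 662 CPM in S1, against 201 to 219 CPM in the morphine and 197 to 201 CPM in the other saline libraries. Its part in the results was not tested, and values without S1 are given beside the results they bear on most. Neuronal markers were present at a median of 80.9 FPKM, with a median log2 fold change of 0.08 (8 of 10 above 0, none under an unadjusted p of 0.05). The 2 below 0 were Gad1 at -0.42 and Gad2 at -0.21, both highest in S1, at 560 and 239 CPM. Without S1 the median was 0.08, with 10 of 10 above 0 and 1, Tubb3, under that p. The medians of astrocyte, microglia and endothelial markers were 0.02, 0.02 and 0.14, and 0.04, 0.03 and 0.14 without S1. With all libraries 1 (Aldh1l1), 0 and 0 of 8 genes each were higher at an unadjusted p under 0.05. Without S1 the counts were 1, 0 and 1. Oligodendrocyte markers had a median of 0.12, with 8 of 8 above 0 and 1 under an unadjusted p of 0.05. Without S1 their median was 0.20, with 5 of 8 under that p, and their part in the results below was not tested. Of all genes, 2.77% were higher at that p with all libraries and 4.08% without S1. Since these were bulk samples, fewer cells of a type and less RNA per cell cannot be told apart.

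Not 1 of the 41 initiation factor genes passed the test for a difference between morphine and saline mPFC. The lowest Benjamini-Hochberg adjusted p in edgeR's quasi-likelihood test was 0.673, and no member was under an unadjusted p of 0.05 in either direction, where 7.72% of all 18970 genes tested were, 2.77% higher and 4.96% lower in morphine. Across all genes 0% passed the adjusted threshold in that test. DESeq2 also called 0 members at an adjusted p, against 0.113% of the 14178 genes to which it gave one, and 0 at an unadjusted p under 0.05, against 5.14% of all genes. The thresholds that the study used for mRNAs, a fold change over 2 and p under 0.05, were applied to edgeR's unadjusted p, not to the study's own. They took in 0 members and 0.664% of all genes. The members' log2 fold changes (morphine over saline) ran between -0.14 and 0.18 with a median of 0.04, 28 above 0 and 13 below, beside a median of -0.01 over all genes. The share above 0 was 68.3% of the members and 47.5% of all genes. Without S1 the members' median was 0.05, with 31 of 41 above 0, beside 9722 of all 18970 genes. In that fit 0 members passed the adjusted threshold, while 1.02% of all genes did.

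In edgeR's fit most of these differences were bounded closely. The 95% interval of the fold change lay within 1.25-fold in either direction for 37 of the 41 genes, against 39.4% of all genes tested, and within 1.5-fold for all 41, against 63.7%. The 4 genes with a wider interval than 1.25-fold were Eif3g, Eif2b1, Eif1ad and Eif2ak2. These counts are those of edgeR. DESeq2 gave larger standard errors, for example 0.142 against 0.0998 for Eif2b3 and 0.117 against 0.0855 for Eif6. The members were more highly expressed than most genes, with a median of 11.3 FPKM against 3.37 FPKM over all genes tested, and their spread between libraries was smaller. The median coefficient of variation was 4.76% among morphine and 3.73% among saline libraries for the members, against 8.36% and 10.1% over all genes.

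**Figure D1:**
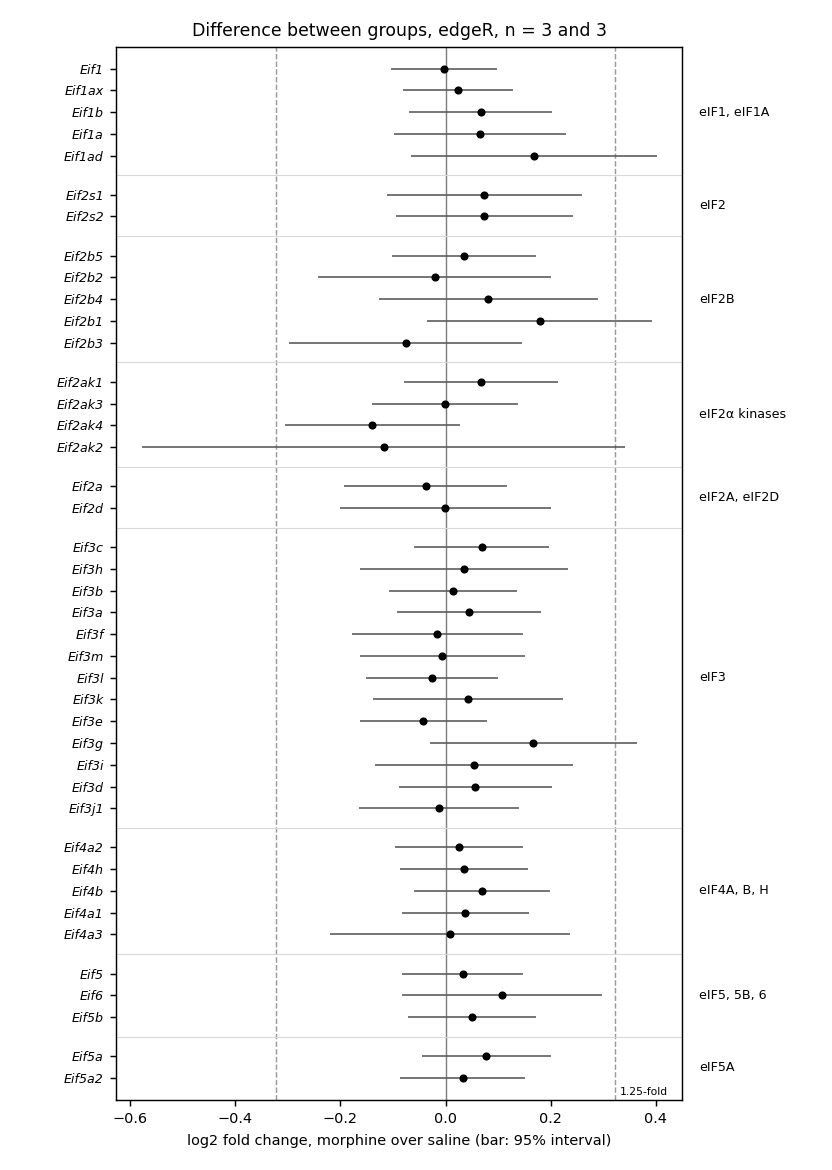
Log2 fold change of each of the 41 tested genes, morphine over saline (horizontal axis), with its 95% interval from edgeR (bars, n = 3 libraries per group), grouped by role. Every interval includes 0, and all but those of Eif3g, Eif2b1, Eif1ad and Eif2ak2 stay inside the dashed lines at 1.25-fold.

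Only Eif2b1 was higher in each morphine library than in each saline library, and only Eif2ak4 was lower, whereas 5.98% and 7.32% of all genes separated in these directions. A count of 1 gene of 41 each way is too small to be told apart from those shares. With another normalisation, RLE size factors, 4 members were separate and higher and 1 lower, where 6.59% and 6.7% of all genes were. Without M2, 16 members were separate and higher and 3 separate and lower, where 14.7% and 16.6% of all genes were. Without S1 the counts were 7 and 1, where 12.7% and 14.8% of all genes were. Groups with fewer libraries separate more easily. The share of all genes that separated either way was 13.3% with all 6 libraries and 19.7 to 31.3% with any library left out. The members' count either way ranged between 2 without M1 and 19 without M2.

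Among the genes named for eIF1 and eIF1A, the eIF1 gene Eif1 was the most abundant, and its libraries lay close together. Its normalised counts were 163, 165 and 166 CPM in M1 to M3, against 168, 163 and 164 CPM in S1 to S3, a log2 fold change of -0.00 with a standard error of 0.05. The lowest p of this group belonged to Eif1ad, which encodes a protein with an eIF1A domain and is grouped here by name only. Eif1ad had 13.5, 11.6 and 12.98 CPM in morphine libraries and 11.6, 11.5 and 10.8 CPM in saline libraries, with M1 and M3 above all saline libraries and M2 level with S1. Its log2 fold change was 0.17 ± 0.11 (SE; edgeR adjusted p = 0.70). The autosomal and X-linked eIF1A genes Eif1a and Eif1ax and the Eif1 copy Eif1b differed by 0.07, 0.02 and 0.07 on the log2 scale, and none passed the test.

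The alpha subunit of eIF2, the target of the stress kinases, is encoded by Eif2s1, and the beta subunit by Eif2s2. Eif2s1 was measured at 39.2, 33.2 and 39.8 CPM in the morphine group and 37.2, 33.8 and 35.6 CPM in the saline group, so that M2 lay below every saline library and M1 and M3 above. Eif2s2 was measured at 34.2, 34.3 and 30.2 CPM in the morphine group and 31.2, 30.6 and 31.9 CPM in the saline group, with M3 the lowest library of all 6. Both genes had a log2 fold change of 0.07 with a standard error of 0.08 (edgeR adjusted p = 0.83 for Eif2s1 and 0.81 for Eif2s2), and M2 and M3 stood in opposite order in them.

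eIF2B is built of a catalytic pair, gamma and epsilon (Eif2b3 and Eif2b5), and a regulatory core, alpha, beta and delta (Eif2b1, Eif2b2 and Eif2b4), which senses the phosphorylated eIF2. The largest positive difference of the whole set was that of the alpha subunit gene Eif2b1 (chromosome 5, 124570213 to 124579131, minus strand, GRCm38). Eif2b1 had 15.9, 13.9 and 15.3 CPM in morphine libraries, against 13.4, 13.01 and 13.4 CPM in saline libraries. Every morphine library was thus higher, M2 by the smallest margin. The log2 fold change was 0.18 ± 0.10 (SE), with a 95% interval of -0.03 to 0.39, an unadjusted p of 0.092 and an edgeR adjusted p of 0.673. Without M2 the log2 fold change was 0.23, with an unadjusted p of 0.046 and an edgeR adjusted p of 0.453. The epsilon subunit gene Eif2b5, which holds the exchange activity, had 44.1, 42.8 and 46.8 CPM in the morphine group and 43.5, 44.2 and 42.9 CPM in the saline group. The 4 other eIF2B genes, Eif2b5 included, had log2 fold changes between -0.08 (Eif2b3) and 0.08 (Eif2b4).

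The 4 kinases of eIF2 alpha respond to different stresses. Eif2ak4 (GCN2) senses uncharged tRNA, Eif2ak3 (PERK) unfolded protein in the endoplasmic reticulum, Eif2ak2 (PKR) double-stranded RNA, and Eif2ak1 (HRI) lack of heme. The largest negative difference of the set was that of Eif2ak4 (chromosome 2, 118388618 to 118475234, plus strand). Eif2ak4 had 33.7, 35.7 and 30.4 CPM in M1 to M3, against 36.8, 36.6 and 36.4 CPM in S1 to S3. The saline libraries lay close together (SD 0.212 CPM), while the morphine libraries spread over a wider range below them (SD 2.69 CPM). Its log2 fold change was -0.14 with a standard error of 0.08, a 95% interval of -0.31 to 0.03, an unadjusted p of 0.0932 and an edgeR adjusted p of 0.673. Leaving out M3, the lowest library, gave -0.08, and leaving out M2 gave -0.19, with an unadjusted p of 0.037 and an edgeR adjusted p of 0.441.

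Eif2ak1, the most abundant of the kinase genes, had 58.8, 53.7 and 55.1 CPM in morphine libraries and 50.2, 53.2 and 56.7 CPM in saline libraries, and the groups overlapped (log2 fold change 0.07 ± 0.07, SE, and 0.03 without S1). Eif2ak3 differed by less than 0.01 on the log2 scale. Eif2ak2, singled out after its values were seen, was the most variable member. It had 8.13, 8.00 and 5.89 CPM in the morphine group and 10.5, 6.60 and 6.59 CPM in the saline group. S1, the library with bulb markers, was the highest of all 6, and the coefficient of variation among saline libraries was 28.7%. Its log2 fold change of -0.12 ± 0.21 (SE) turned to 0.14 ± 0.16 without S1, and neither passed the test.

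**Figure D2:**
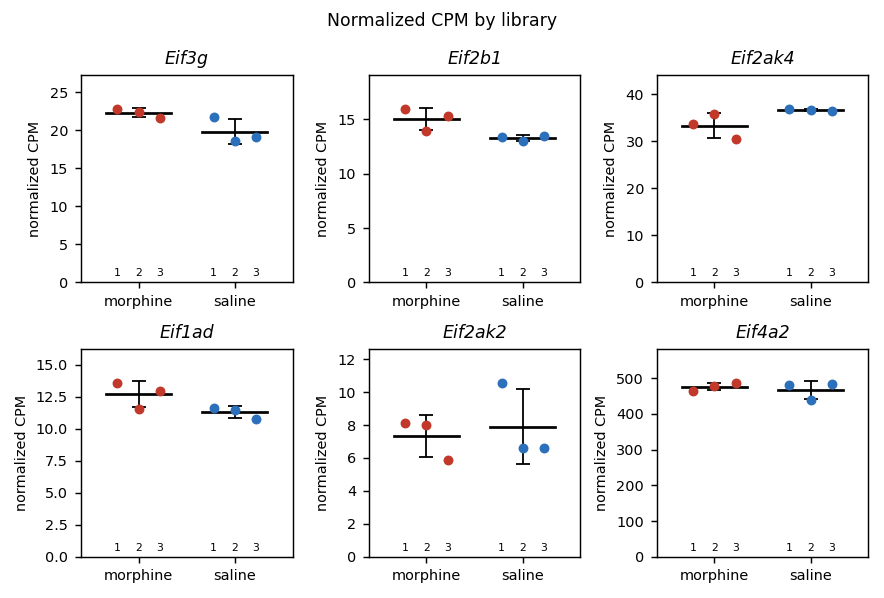
Normalised CPM of 6 genes in each library (points, with the number of the library above the axis), with the group mean (horizontal line) and SD (error bars, n = 3), morphine left and saline right. Eif2b1 lay higher and Eif2ak4 lower in every morphine library, while the groups of Eif3g, Eif1ad, Eif2ak2 and Eif4a2 overlapped, and S1 had the highest Eif2ak2 value, 10.5 CPM.

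Of the factors that can deliver the initiator tRNA without eIF2, Eif2a had 35.0, 33.99 and 36.3 CPM in morphine and 38.2, 34.4 and 35.5 CPM in saline libraries. S1 was again the highest library, and the log2 fold change of -0.04 became 0.01 without it. Eif2d differed by less than 0.01 on the log2 scale, although its morphine libraries spread over 28.2 to 35.5 CPM. The span of Eif2d, introns included, overlaps that of Rassf5 on the opposite strand over 11249 bases. Overlap between exons was not measured. No source used here gives the strand setting of the counting, so reads of these genes may not be separated where exons overlap. The same holds for other members with a partner on the opposite strand. Among them are Eif1ad with Banf1, Eif2a with Serp1, Eif2ak1 with Aimp2, Eif3m with Ccdc73, Eif3j1 with Spg11 and Eif5b with Rev1. The span of Eif2a also overlaps that of 6720482G16Rik on the same strand over 1192 bases, which no strand setting would separate. 6720482G16Rik had 10 to 39 counts in each library.

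eIF3, the largest initiation factor, is a scaffold on the small subunit, and 13 of its subunit genes were tested. Their log2 fold changes ran between -0.04 (Eif3e) and 0.17 (Eif3g) with a median of 0.04, 8 above 0 and 5 below. Eif3g, which encodes an RNA-binding subunit (chromosome 9, 20894349 to 20898623, minus strand), had the lowest p of all members. It had 22.8, 22.5 and 21.6 CPM in morphine libraries and 21.7, 18.7 and 19.2 CPM in saline libraries, so that only S1 reached the morphine values. The log2 fold change was 0.17 ± 0.09 (SE), with a 95% interval of -0.03 to 0.36, an unadjusted p of 0.089 and an edgeR adjusted p of 0.673. Without S1 it was 0.24 ± 0.09 (SE), with an unadjusted p of 0.016 and an edgeR adjusted p of 0.270. Eif3g was then the only member under an unadjusted p of 0.05, beside 4.08% of all genes higher and 7.48% lower in morphine. Eif3c, which encodes a core subunit, was the most abundant eIF3 gene as deposited and had 155, 139 and 153 CPM in the morphine group against 148, 139 and 139 CPM in the saline group. These groups overlapped, M2 being level with S2 and S3 (log2 fold change 0.07 ± 0.06, SE).

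Eif4a2, the form of the helicase eIF4A that is abundant in brain, was the most highly expressed member. It had 465, 477 and 485 CPM in M1 to M3 and 480, 439 and 485 CPM in S1 to S3, a log2 fold change of 0.03 ± 0.05 (SE), with S2 alone apart. Eif4b, a cofactor of eIF4A, had 199, 178 and 195 CPM in the morphine group and 189, 175 and 180 CPM in the saline group. Its groups overlapped through M2, and its log2 fold change was 0.07 ± 0.06 (SE; edgeR adjusted p = 0.764). The others of this group, Eif4a1, Eif4h and Eif4a3, the last a part of the exon junction complex, differed by 0.04, 0.04 and 0.01 on the log2 scale.

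Eif5, the GTPase activator of eIF2, had 228, 211 and 229 CPM in morphine and 224, 216 and 213 CPM in saline libraries, with M2 the lowest of all 6. Eif6, which keeps the large subunit from joining too early, had 21.6, 19.6 and 21.6 CPM in morphine and 18.6, 20.1 and 19.6 CPM in saline libraries, and M2 again lay among the saline values (log2 fold change 0.11 ± 0.09, SE; edgeR adjusted p = 0.755). Eif5b, the subunit joining factor, differed by 0.05. eIF5A, despite its name, acts mainly in elongation and needs the modified residue hypusine. Its main gene Eif5a had 143, 129 and 132 CPM in the morphine group against 124.7, 132 and 127 CPM in the saline group, with M1 alone above the rest (log2 fold change 0.08 ± 0.06, SE; edgeR adjusted p = 0.722), and its copy Eif5a2 differed by 0.03.

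The members stood at different heights in different libraries. Relative to each gene's mean over the 6 libraries, the median member stood at 0.06, -0.03 and 0.03 (log2) in M1, M2 and M3 and at -0.00, -0.03 and -0.03 in S1, S2 and S3. M1 was the highest library for 14 members and M3 and S1 for 10 each, against 3 for M2, 3 for S2 and 1 for S3. M1 was the lowest library for 2 members, M3 for 6, M2, S1 and S3 for 8 each and S2 for 9. Over all genes M1 was the highest for 16.2% and the lowest for 16.6%, beside 34.1% and 4.88% of the members. S1 stood near its share of all genes. It was the highest for 24.4% of the members and 24.9% of all genes, and the lowest for 19.5% and 22.1%. M2, M3, S2 and S3 were the highest for 7.32, 24.4, 7.32 and 2.44% of the members, against 14.2, 14.6, 14.1 and 16.1% of all genes. They were the lowest for 19.5, 14.6, 21.95 and 19.5% of the members, against 13.7, 17.1, 14.999 and 15.5% of all genes. The share of counts in TEC and sense intronic transcripts, classes of the GENCODE annotation, was 0.901, 1.07 and 0.845% in M1, M2 and M3 and 0.988, 1.14 and 1.21% in S1, S2 and S3. The 3 libraries with the lowest share, M3, M1 and S1, had the 3 highest member medians. The share of counts in protein-coding genes was highest in these 3 too (94.3% in M1, 93.96% in S1 and 93.9% in M3). The mitochondrial share did not follow this order, with S2 at 0.787% above S1 at 0.760%. The part of these shares in the members' differences was not tested.

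**Figure D3:**
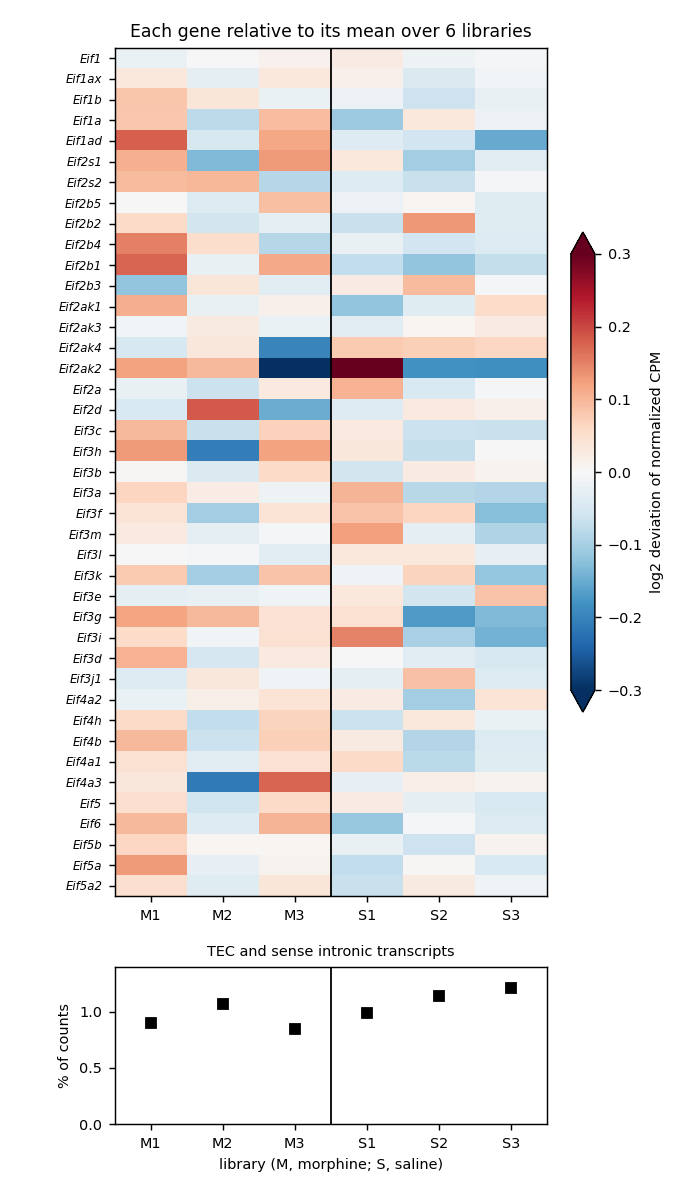
Upper panel, log2 deviation of each of the 41 genes (rows) from its mean over 6 libraries (columns, morphine left of the line and saline right), red higher and blue lower. Lower panel, percent of counts in TEC and sense intronic transcripts in the same libraries, where M2, S2 and S3 are above 1% and M1, M3 and S1 below it.

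The levels of the members covered a wide range. Levels of different genes were compared as FPKM, in which the count is divided by a length per gene. Eif4a2 was highest at 88.3 FPKM (mean of 6 libraries), followed by Eif1 at 78.5 and Eif5a at 55.2 FPKM. Eif4h, Eif4b and Eif3c followed at 42.3, 41.6 and 41.4 FPKM, and the library ranges of these 3 overlapped. Of the 41 tested genes, Eif2ak2 and Eif2b3 were lowest at 1.49 and 1.84 FPKM, and their library ranges overlapped. The ranges of Eif4a2, Eif1 and Eif5a did not overlap. This order is that of the deposited FPKM, whose length is described below. With the length of the longest coding transcript Eif4a2, Eif1, Eif5a and Eif4h still led in that order, but Eif4a1 (71.2), Eif5 (54.3) and Eif3e (50.3) then stood above Eif4b (48.2) and Eif3c (42.9).

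**Figure D4:**
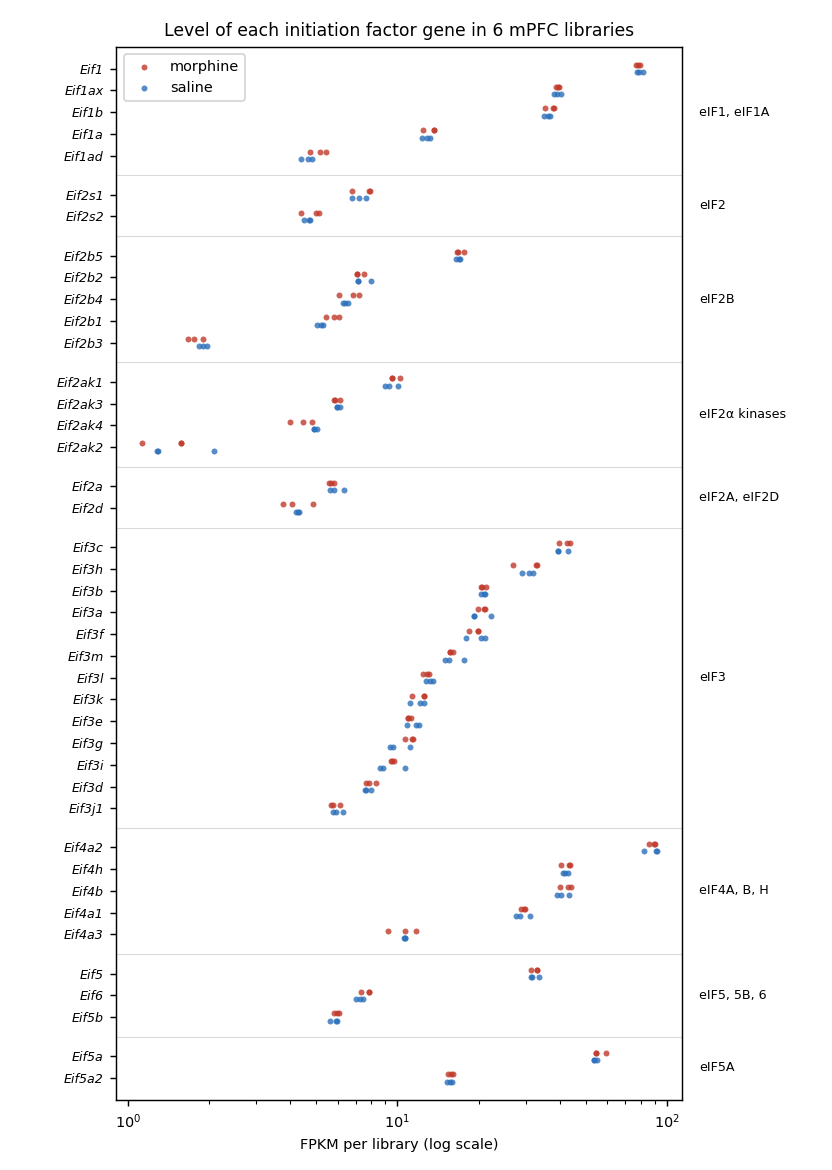
FPKM of each tested gene in each of the 3 morphine (red, upper) and 3 saline (blue, lower) libraries on a log scale, grouped by role and ordered by mean level within a role. The distance between genes, for example from 1.49 FPKM for Eif2ak2 to 88.3 FPKM for Eif4a2, was far larger than that between groups.

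Within the kinases the order of FPKM was Eif2ak1 (9.62), Eif2ak3 (5.98), Eif2ak4 (4.68) and Eif2ak2 (1.49), and the library ranges of neighbours did not overlap. In eIF2B, Eif2b5 stood at 16.9 FPKM and Eif2b3 at 1.84 FPKM, while Eif2b2, Eif2b4 and Eif2b1 lay between them at 7.33, 6.55 and 5.48 FPKM and overlapped as neighbours. The genes of a catalytic pair thus had the highest and the lowest level of the complex.

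The deposited FPKM of a gene used the length of the union of all its annotated exons, retained introns included. For 40 of the 43 members the length implied by count and FPKM was within 1 base of that exon union. This length was 1.41 times the length of the longest coding transcript in the median member and over 2 times in 10 members, most of all in Eif3e (4.46 times), Eif3i (3.30) and Eif3k (2.97). The comparison of both lengths was chosen after seeing the data. Without the loosely bound subunit gene Eif3j1, the 12 other eIF3 genes spanned 5.28-fold on the deposited scale, between 7.84 FPKM for Eif3d and 41.4 FPKM for Eif3c. Over the length of the longest coding transcript they spanned 2.63-fold, between 19.1 for Eif3g and 50.3 for Eif3e. Eif3j1 was the lowest on both scales, at 5.93 and 6.38 FPKM, but it shares sequence with its near-identical copy Eif3j2, so its level is less certain. The order of the genes therefore depended on the length used, whereas the comparison of morphine with saline within a gene does not use a length.

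**Figure D5:**
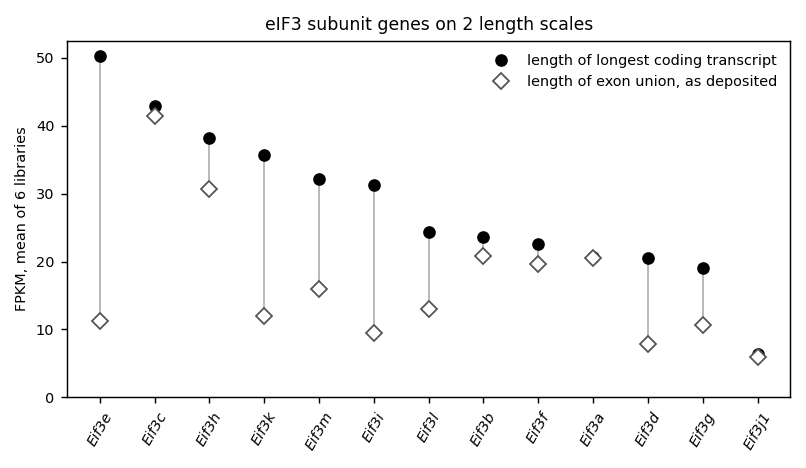
Mean FPKM over 6 libraries of the 13 tested eIF3 subunit genes, with the count divided by the length of the longest coding transcript (filled circles) or by the exon union as deposited (open diamonds). The 12 genes other than Eif3j1 lie between 19.1 and 50.3 on the coding transcript scale and between 7.84 and 41.4 on the deposited scale.

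Ratios between copies of a gene did not separate the groups. The FPKM ratio of Eif4a2 to Eif4a1 was 3.02 ± 0.121 in morphine and 3.04 ± 0.129 in saline libraries (SD, n = 3 each), and that of Eif5a to Eif5a2 was 3.57 ± 0.135 in morphine and 3.46 ± 0.037 in saline libraries. For Eif1 over Eif1b the ratio lay between 2.002 and 2.20 in morphine and between 2.18 and 2.22 in saline libraries, and for Eif1ax over Eif1a it was 2.97 ± 0.126 in morphine and 3.06 ± 0.209 in saline libraries. The library ranges of the groups overlapped in each of these. With the length of the longest coding transcript the ratio over all libraries was 5.81 for Eif5a to Eif5a2, 3.14 for Eif1 to Eif1b, 2.45 for Eif4a2 to Eif4a1 and 3.05 for Eif1ax to Eif1a. Eif2s1 stood 1.56 ± 0.239 times as high as Eif2s2 in morphine and 1.55 ± 0.066 times in saline libraries as deposited, but this order turned to 0.852 over all libraries with the length of the longest coding transcript. Processed pseudogenes of Eif1, Eif4a and Eif5a share sequence with these genes, so their counts are less certain.

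Most members had a start site rich in GC and CpG. A RefSeq promoter window (GRCm38.p6, 250 bases before to 50 after the upstream-most start) was matched for 36 of 43 members and for 27025 genes in all. Members' windows had a median GC content of 61.5% against 52.7% over all genes, and 88.9% of them held at least 15 CpG, against 35.2%. The Sp1 box GGGCGG was in 72.2% of members' windows against 35.9% of all, the ETS motif CCGGAAG in 33.3% against 9.14%, the E-box CACGTG in 19.4% against 7.24%, and the NRF1 motif (GCGCA, any base, then GCGC) in 13.9% against 4.82%. Each was searched on both strands, and matches of different motifs may share bases. The CRE (TGACGTCA), the YY1 motif (AAGATGGCG) and the ATF4 element (TGATGCAAT) were in 0 of the 36 windows, against 1.85%, 1.48% and 0.207% of all. These are string matches, which vary with base composition, and were not tested.

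An NRF1 match upstream of the RefSeq start is shown for each of 4 genes as an example of this composition, on the strand of the gene, with the matched letters in capitals. By GENCODE the gene Eif2s1 begins earlier, at 78861819, so its match lies inside the annotated gene. In Eif2s1 and Eif3a the motif reads on the opposite strand. The match in Eif2s2 lies after the start and is not shown. Eif3k has another upstream match, which begins at -211 and is not shown. The stretches shown lie at chr11:100319731-100319760 for Eif1, chr12:78862014-78862043 for Eif2s1, chr19:60790742-60790771 for Eif3a and chr7:28981947-28981976 for Eif3k. Their matches begin at -208, -48, -68 and -78 from the start site.
Eif1: catgcccactGCGCAAGCGCgcaggcggac
Eif2s1: ttttctgtcgGCGCCTGCGCagtgagaggt
Eif3a: agacgccagcGCGCCTGCGCgcggagaaag
Eif3k: tgagctcattGCGCATGCGCaagttacaac
Outside the matched letters the stretches differ. Eif3a and Eif3k encode subunits of eIF3, Eif2s1 a subunit of eIF2, and Eif1 a single-chain factor.

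No gene in 3 lists of genes that act beside the initiation factors passed the adjusted threshold. Of 14 elongation and termination factor genes, all tested, 0 were under an unadjusted p of 0.05 in either direction (7.72% of all genes were), with a median log2 fold change of 0.02. The lowest p was that of the release factor gene Gspt2 (0.17 ± 0.09, SE), at 23.6, 25.8 and 23.8 CPM in morphine and 23.7, 19.8 and 21.5 CPM in saline libraries. Without S1 the log2 fold change of Gspt2 was 0.24, the only value of this list under an unadjusted p of 0.05 (edgeR adjusted p = 0.256). The neuronal elongation factor gene Eef1a2 and Eef2, which moves the ribosome along, differed by 0.07 and 0.06. Of 16 genes for partners of initiation, 0 were under an unadjusted p of 0.05 with all libraries, with a median of 0.00. Without S1, Denr was higher and Bzw2 lower at that p, as were 4.08% and 7.48% of all genes. Denr, a factor for reinitiation, had 21.6, 18.5 and 17.6 CPM in morphine and 17.55, 17.44 and 15.1 CPM in saline libraries, so that the groups did not overlap, though M3 and S1 were nearly level. Its log2 fold change was 0.20 ± 0.11 (SE) and 0.24 without S1 (edgeR adjusted p = 0.673 and 0.400). Bzw2 stood at -0.13 and at -0.19 without S1 (edgeR adjusted p = 0.709 and 0.333), and Paip2, an inhibitor of the poly(A)-binding protein, at 0.09.

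The targets of the integrated stress response, whose mRNAs or proteins the kinases are known to raise, were represented by 20 genes, of which 18 were tested and Trib3 and Atf3 were under the filter. None was under an unadjusted p of 0.05 in either direction, and the median log2 fold change was -0.02, or 0.01 without S1, where again 0 were under that p. Chac1, a glutathione-degrading enzyme, had the lowest p (0.26 ± 0.15, SE; edgeR adjusted p = 0.678), with 5.70, 6.01 and 6.84 CPM in morphine and 5.74, 4.71 and 5.06 CPM in saline libraries. The asparagine synthetase gene Asns stood at 0.08 and the serine pathway gene Shmt2 at -0.16, and the transcription factor gene Atf4, which is regulated mainly in its translation, at -0.04 ± 0.06 (SE).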

How the data were processed

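The members and lists were chosen with earlier results of these data known. Libraries were rRNA-depleted and directional (150-base paired reads), and groups came from the sample labels. The authors deposited whole-number counts per gene, not normalised, and FPKM. In 13342 genes, those that reached 50 counts everywhere, the deposited FPKM equalled the count over a gene length and a library factor. The notes name HISAT2 2.1.0 and mm10, cutadapt 1.9.3, StringTie 1.3.3, HTSeq 0.11.2, limma 3.40.6, DESeq 1.8.3 and DESeq2 1.26.0, without roles.

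Testing used edgeR 4.0.16 in R 4.3.3 (TMM, quasi-likelihood F test, Benjamini-Hochberg adjustment over all genes) on genes that reached 10 counts in 3 or more of the libraries. CPM are TMM-normalised. The study names DEGseq for lncRNAs. Alternatives were DESeq2 1.42.0, RLE factors, other filters, limma 3.58.1 on log2(FPKM + 0.1) or log2(FPKM + 1), a replicate block, and each library left out. Genes given with every library were those under an unadjusted p of 0.05, those whose groups did not overlap, and in each role the gene of lowest p and of highest FPKM. From each pathway list the 3 genes of lowest p were named, and Atf4 was added after its values were seen. Scripts were tested on simulated data.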

Additional observations from a re-analysis of the deposited data

How the results depend on the processing

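No initiation factor gene passed the adjusted threshold under any alternative run. The number of all genes called was 0 in edgeR, 16 with DESeq2, 279 without a filter on low counts, and 0 to 193 with a library left out, the highest without S1. Members under an unadjusted p of 0.05 numbered 0 to 2 with a library left out (Eif2b1 and Eif2ak4 without M2, Eif3g without S1) and 0 otherwise. Members whose groups did not overlap numbered 5 with DESeq2 and 5 with RLE size factors (13.3% of all genes separated in each), against 2 with TMM (13.3%), and 2 to 19 with a library left out, where 19.7 to 31.3% of all genes separated, both highest without M2. The members' median log2 fold change was 0.01 to 0.04 under the other methods and 0.02 to 0.06 with a library left out. Of 128 values of named genes under alternatives that kept all libraries, 126 kept their sign, and Eif1 turned to 0.0043 with DESeq2 and with RLE size factors. With a library left out, 5 of 96 values turned, with ranges of -0.012 to 0.0090 for Eif1, -0.0038 to 0.063 for Eif2b5, -0.070 to 0.0095 for Eif2a and -0.019 to 0.056 for Eif4a2, and the cause was not tested. Replicate numbers did not pair the samples (correlations of 0.015, 0.0013 and -0.021 between same-numbered libraries), and with a replicate block 0 genes were called and the members' median was 0.03. With the length of the longest coding transcript, chosen after seeing the data, the ratios Eif4a2 to Eif4a1, Eif1 to Eif1b and Eif5a to Eif5a2 moved to 2.45, 3.14 and 5.81, and Eif2s1 to Eif2s2 to 0.852. With 3 libraries per group, an exact permutation test of a single gene cannot go below p = 0.10.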
